A study of Mus musculus with 8 samples.

Results

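The Sox genes encode transcription factors that share a DNA-binding HMG box and are sorted into groups by how alike they are. The 10 genes described here are Sox1 and Sox2 of group B1, Sox21 of group B2, Sox4 and Sox11 of group C, Sox5 and Sox6 of group D, and Sox8, Sox9 and Sox10 of group E. They were taken by name from the 31053 genes of the tables, which hold 19 Sox genes in all, and each had UMIs in both libraries. A UMI, or unique molecular identifier, marks a captured RNA molecule.

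In the nervous system, group B1 factors are known for keeping neural stem cells and progenitors undifferentiated, and Sox21 is known for opposing them. Group C factors are known for neuronal differentiation programmes in newborn neurons. Sox9 is known in neural stem cells and astrocytes, while Sox10 and Sox8 are known in the oligodendrocyte lineage. Sox5 and Sox6 lack a transactivation domain of their own and act with other Sox factors, including Sox9 and Sox10.

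The cells came from the dentate gyrus, the part of the hippocampus where neurons are born in adult mice. Nestin-GFP mice aged 8 weeks, in which Nestin regulatory sequence drives GFP, received either a sham craniotomy (Control) or a controlled cortical impact on the left hemisphere (TBI), and GFP+ cells were sorted at day 15. The labels list 4 animals for each condition, a number that differs from the study's methods, and the cells of a condition were pooled into 1 library, so the comparison of TBI with Control has no replicate and no test was possible. Every interval below is a 95% interval for counting error only, and does not cover differences between animals, surgery, dissociation or library preparation.

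After filtering, 3048 Control cells (24629018 UMIs, median 6933 per cell) and 5033 TBI cells (31501853 UMIs, median 5676 per cell) were analysed. Clusters were named from marker genes that included no Sox gene, and the Sox genes were also kept out of the clustering. Names were given for 12 cell types, from 83 oligodendrocyte precursor cells (OPC) to 1693 oligodendrocytes, and 414 cells stayed unnamed. Of the 13 names tried, immature granule neuron was given to no cluster. The late neuroblast cluster led by Gal (355 cells) had 6 markers of its type detected but 0 among its 10 leading genes. RG-like cells are cells resembling radial glia, and stem-like astroglia are a Frzb+ Hopx+ cluster of 135 cells. The sort also held endothelial, mural and microglial cells: Nes, the gene behind the reporter, was at 449 CPM (UMIs per 1000000 UMIs of all genes other than Malat1) in endothelial and 264 in mural cells, against 71.7 in RG-like cells and 1.24 in astrocytes. Only 3 cell barcodes occurred in both tables.

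Levels are CPM from UMIs summed over the cells of a type in a library. Because the libraries read RNA 3′ ends, levels were compared for 1 gene across cell types and not between genes. In pooled cells of a type, fewer expressing cells and less RNA per cell cannot be told apart from such sums, so shares of cells with a UMI are given beside them.

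In GRCm38, the genes of 1 exon were Sox1 (chr8:12395295-12400126, plus strand), Sox2 (chr3:34650405-34652461, plus), Sox4 (chr13:28948919-28953713, minus), Sox11 (chr12:27334264-27342574, minus) and Sox21 (chr14:118233232-118237030, minus). Sox8 (chr17:25565892-25570686, minus), Sox9 (chr11:112782224-112787760, plus) and Sox10 (chr15:79154908-79165240, minus) are short genes of several exons. Sox5 (chr6:143828425-144781977, minus) and Sox6 (chr7:115470872-116038796, minus) have up to 15 and 17 exons. The annotation places 5 antisense genes (Sox5os1 to Sox5os5) on Sox5, Sox6os and Gm45025 on Sox6, Gm26735 on Sox4, 2810468N07Rik on Sox8 and Gm4675 on Sox21. On the member's own strand it places Sox1ot and Gm25239 on Sox1, Sox2ot on Sox2, and Sox5it and Gm44068 on Sox5. Whether counting used strand is not given in the sources used here, so the share of reads from all these partners is unknown.

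Sox4 and Sox11 had the most similar patterns of any 2 members (below), and the 250 bases upstream of their RefSeq starts are shown for that reason, read 5′ to 3′ on the gene's strand. RefSeq's table for GRCm38.p6 matched 8 of the 10 members. Capitals mark matches on either strand to the 7 motifs named after the sequences, and neighbouring matches may run together.
Sox4, chr13:28953700-28953949, minus strand: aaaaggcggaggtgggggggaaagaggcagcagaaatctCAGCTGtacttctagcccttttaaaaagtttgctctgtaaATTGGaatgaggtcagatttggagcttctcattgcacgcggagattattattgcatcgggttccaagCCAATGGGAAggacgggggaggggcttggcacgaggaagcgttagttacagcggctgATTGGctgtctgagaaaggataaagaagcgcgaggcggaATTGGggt
Sox11, chr12:27342719-27342968, minus strand: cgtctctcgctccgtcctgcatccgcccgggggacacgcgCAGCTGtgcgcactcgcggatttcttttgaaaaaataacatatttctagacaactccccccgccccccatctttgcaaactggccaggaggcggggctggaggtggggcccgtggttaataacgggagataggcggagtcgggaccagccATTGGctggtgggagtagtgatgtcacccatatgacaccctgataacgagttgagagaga

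Both sequences held the E-box CAGCTG, starting 211 bases before the start of Sox4 and 210 bases before that of Sox11. In the same window 4271 of the 32851 promoters of the table held these letters on either strand. The CCAAT box, spelled CCAAT, occurred 4 times before Sox4 and 1 time before Sox11, and in 33.8% of all promoters. The RBPJ letters TGGGAA, which 21.6% of promoters held, matched 1 time before Sox4 and overlapped a CCAAT box. The SOX core ACAAT was in neither sequence and in 27.7% of promoters. The E-box of neurogenic factors, CAGATG, was also in neither sequence and in 14.4% of promoters. The same held for the octamer ATGCAAAT, found in 1.60% of promoters. The TATA box, searched as TATAAA, was in neither sequence and in 12.4% of promoters. These are matches of letters and were not tested as binding sites.

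The members divided the cell types among themselves, and the division was alike in both libraries. Sox4 and Sox11 were highest in neuroblasts, Sox1 in RG-like cells and stem-like astroglia, Sox9 in stem-like astroglia and astrocytes, Sox6 and Sox8 in OPC, and Sox10 in OPC and oligodendrocytes. The leading cell type was the same in both libraries for 7 of the 10 members, a count that was not set beside that of all genes. The leading type stood apart from the next by its interval in both libraries for Sox4, Sox6, Sox8 and Sox11, and in Control alone for Sox9. For Sox1 (RG-like cells and stem-like astroglia), Sox10 (OPC and oligodendrocytes), Sox2, Sox5 and Sox21 the intervals of the 2 leading types overlapped, so their order was not resolved.

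**Figure D1:**
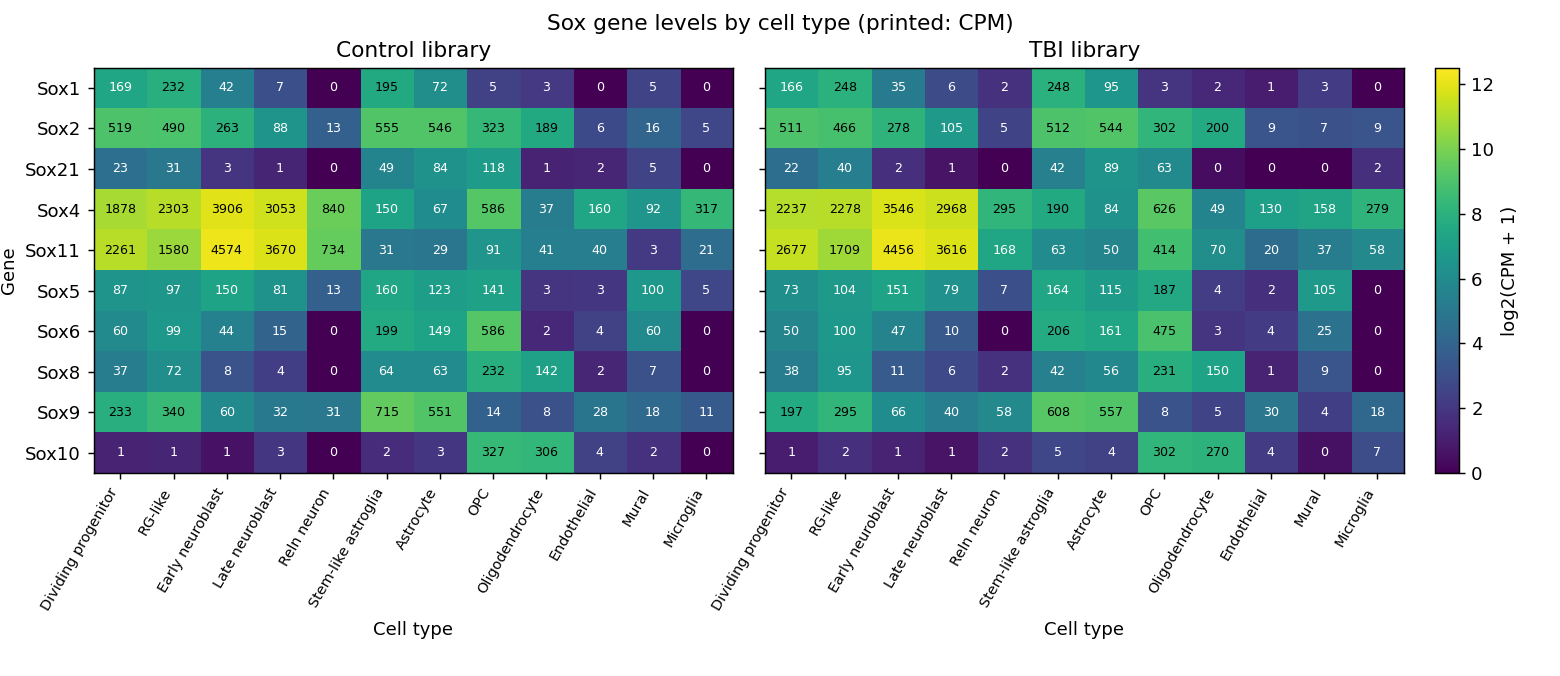
Level of each Sox gene (rows) in each cell type (columns) in the Control library (left) and the TBI library (right), with colour on a log2(CPM + 1) scale and the CPM printed in each cell. Sox4 and Sox11 are at 1580 or more in the 4 neurogenic types on the left of each panel, and Sox10 is at 270 or more in OPC and oligodendrocytes and at most 6.69 elsewhere.

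Of the group B1 genes, Sox1, a factor of neural progenitors, was at 232 CPM (212 to 254) in Control and 248 (230 to 268) in TBI RG-like cells. Stem-like astroglia, at 195 (158 to 239) and 248 (182 to 330), could not be placed apart from RG-like cells in either library. Dividing progenitors were at 169 and 166, early neuroblasts at 41.5 and 35.3, and late neuroblasts at 7.32 and 6.29. Astrocytes, at 72.4 and 95.3, were below the progenitors but well above oligodendrocytes (3.16 and 1.70). In OPC and in non-neural cells it was at most 4.98, so Sox1 was graded within the neurogenic cells and low outside neural progenitors and astroglia.

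Sox2, which marks neural stem cells and is used with Sox1 to hold the progenitor state, was spread more widely. It was at 546 (517 to 576) and 544 (509 to 581) in Control and TBI astrocytes, 555 and 512 in stem-like astroglia, 519 and 511 in dividing progenitors and 490 and 466 in RG-like cells. It was lower in early neuroblasts (263 and 278) and lower again in late neuroblasts (88.2 and 105). The oligodendrocyte lineage kept Sox2, with 323 and 302 in OPC and 189 and 200 in oligodendrocytes, against at most 15.8 in endothelial, mural and microglial cells. After thinning each cell to 2000 UMIs, which left out 351 shallower Control and 738 TBI cells, 32.1% of 1578 oligodendrocytes had a Sox2 UMI, against 1.01% of endothelial and 1.06% of mural cells. Unthinned, the share in oligodendrocytes was 73.2% at a median of 8832 UMIs, against 1.92% in endothelial cells at a median of 3973.

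Sox21 was a low gene with its highest levels in glia. Its levels were 84.5 (73.3 to 97.0) and 88.6 (74.7 to 104) in astrocytes, 118 (77.2 to 173) and 63.1 (40.0 to 94.7) in OPC, and 49.3 and 42.3 in stem-like astroglia. RG-like cells were at 30.7 and 40.1 and dividing progenitors at 22.7 and 21.9, whereas early neuroblasts were at 2.75 and 2.35. The OPC values rested on 49 UMIs over both libraries, too few for a ratio to be read, and their intervals overlapped.

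Sox4 and Sox11, the group C factors of newborn neurons, were highest in early neuroblasts. Sox11 was at 4574 (4505 to 4644) in Control and 4456 (4398 to 4514) in TBI early neuroblasts, and at 3670 and 3616 in late neuroblasts. Sox4 was at 3906 (3842 to 3971) and 3546 (3495 to 3598) in early and at 3053 and 2968 in late neuroblasts. Neither gene was confined to neuroblasts: Sox4 was at 2303 and 2278 in RG-like cells and 1878 and 2237 in dividing progenitors, and Sox11 at 1580 and 1709 and at 2261 and 2677 in the same types. The 2 genes ordered these progenitors differently, since RG-like cells exceeded dividing progenitors for Sox4 in Control (in TBI their intervals overlapped) and lay below them for Sox11 in both libraries.

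Nearly every cell of the neurogenic types carried the group C genes. At 2000 UMIs per cell, all 881 early neuroblasts had a Sox11 UMI and 99.8% had a Sox4 UMI, and 96.8% of late neuroblasts, 84.0% of dividing progenitors and 76.9% of RG-like cells had both. Within each type the share with both was close to the product of the separate shares (74.4% in RG-like cells, for example). In neuroblasts nearly every cell had each gene, so the share with both had to lie near the product. Sox2 and Sox11 were found together in 52.8% of dividing progenitors, 43.9% of RG-like cells, 38.7% of early and 16.6% of late neuroblasts. These shares were again close to the products, which in neuroblasts was fixed by nearly every cell having a Sox11 UMI.

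Outside the neurogenic types, Sox4 and Sox11 differed. In OPC, Sox4 was at 586 (Control) and 626 (TBI), with a UMI in 38 of 75 thinned cells. Sox4 was at 317 and 279 in microglia, 160 and 130 in endothelial and 92.2 and 158 in mural cells, with a UMI in 32.0%, 17.4% and 17.0% of thinned cells. All oligodendrocytes together had Sox4 at 36.8 (Control) and 49.4 (TBI), and the 1427 outside the cluster with most doublets, left out after the data were seen, at 11.4 and 13.8. Both were below the vascular and microglial levels by more than counting error. Sox11 was at 39.7 and 20.5 in endothelial, 3.32 and 37.2 in mural and 21.1 and 58.0 in microglial cells, and 2.52% and 1.53% of thinned endothelial and mural cells had a UMI. Astrocytes, at 28.7 and 50.4, were within that range, with a UMI in 4.96% of cells. By library, they were above mural cells in Control and above endothelial cells in TBI by more than counting error. Their intervals overlapped those of the other vascular and microglial types.

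Over the 24 combinations of cell type and library, the log2 levels of Sox4 and Sox11 had a Pearson r of 0.92, the highest of any 2 members, followed by Sox5 with Sox6 and Sox6 with Sox21 (0.87 each). Among 10137 genes with at least 500 UMIs, the genes most like Sox4 were Gm26735 (r = 0.984), Top1 (0.974) and Jpt1 (0.963). Gm26735 is the gene annotated across Sox4 on the other strand, so shared reads could not be separated. The genes most like Sox11 were Dcx (0.955), a microtubule protein of migrating neurons, Srrm4 (0.953), a neuronal splicing factor, and Rnf165 (0.952). In group B these genes were Rnf43 (0.951), Hmgcs1 (0.950) and Pantr1 (0.940) for Sox2, and Gas1 (0.929), Rfx4 (0.929) and Ptprz1 (0.924) for Sox21. For group D they were Gdf11 (0.931), Kctd15 (0.931) and Grtp1 (0.898) with Sox5, and Gdf11 (0.909), Ptprz1 (0.906) and Fabp7 (0.903) with Sox6. For group E they were Rnf43 (0.912), Itgb8 (0.895) and Acot1 (0.877) with Sox8, Ndufc2 (0.925), Lix1 (0.916) and Thrsp (0.915) with Sox9, and Cobl (0.955), Ugt8a (0.950) and Gal3st1 (0.944) with Sox10. Ugt8a and Gal3st1 make the galactolipids of myelin. These points share 2 libraries and 12 cell types, and the correlations are descriptions.

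Finer clusters showed how the members changed along the neurogenic cells, with each cluster described by its leading genes and not by a measured time. Sox1 was at 241 in RG-like cells, 158 in dividing cells led by histone genes, 179 in dividing cells led by Cdc20, 51.5 in the Eomes+ cluster of early neuroblasts, 21.9 in the Nhlh1+ cluster, 11.6 in late neuroblasts led by Neurod2 and Calb2 and 1.82 in those led by Gal. The Sox1 intervals of the histone and Cdc20 clusters overlapped in Control (175 and 163) and were apart in TBI (130 and 198). Sox9 went from 315 in RG-like cells to 78.2, 46.3, 41.6 and 31.7 in the same 4 neuroblast clusters. For both Sox1 and Sox9, the intervals of the Nhlh1+ and Neurod2 clusters overlapped in each library. Those of the Neurod2 and Gal clusters overlapped for Sox9 in each library, so these steps were not resolved. Sox2 declined more gradually, from 477 to 299, 240, 139 and 52.5. Sox4 and Sox11 instead reached their highest levels in the Nhlh1+ cluster, at 3883 and 4607, and were at 1917 and 1626 in the 84 late neuroblasts led by Fabp3. Those 84 cells had a median of 3441.5 UMIs and a median mitochondrial share of 13.96%. The medians were 9254 and 5.66% in the Neurod2 cluster and 7774 and 5.86% in the Gal cluster. The part of this in the lower levels was not tested. For Sox11 the step from the Eomes+ to the Nhlh1+ cluster was in Control (4418 and 4746), while in TBI the intervals overlapped (4419 and 4501).

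Sox5 had its neurogenic maximum in early neuroblasts as well, at 147 in the Eomes+ and 155 in the Nhlh1+ cluster against 101 in RG-like cells. Sox6, its group D partner, went the other way, from 99.4 in RG-like cells to 56.6 and 32.6 in these clusters. The step between the early neuroblast clusters was in the TBI library (64.3 and 25.4), while in Control their intervals overlapped (45.2 and 42.2). The Sox8 level separated the dividing clusters, at 19.1 in cells led by histone genes and 56.6 in cells led by Cdc20.

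**Figure D2:**
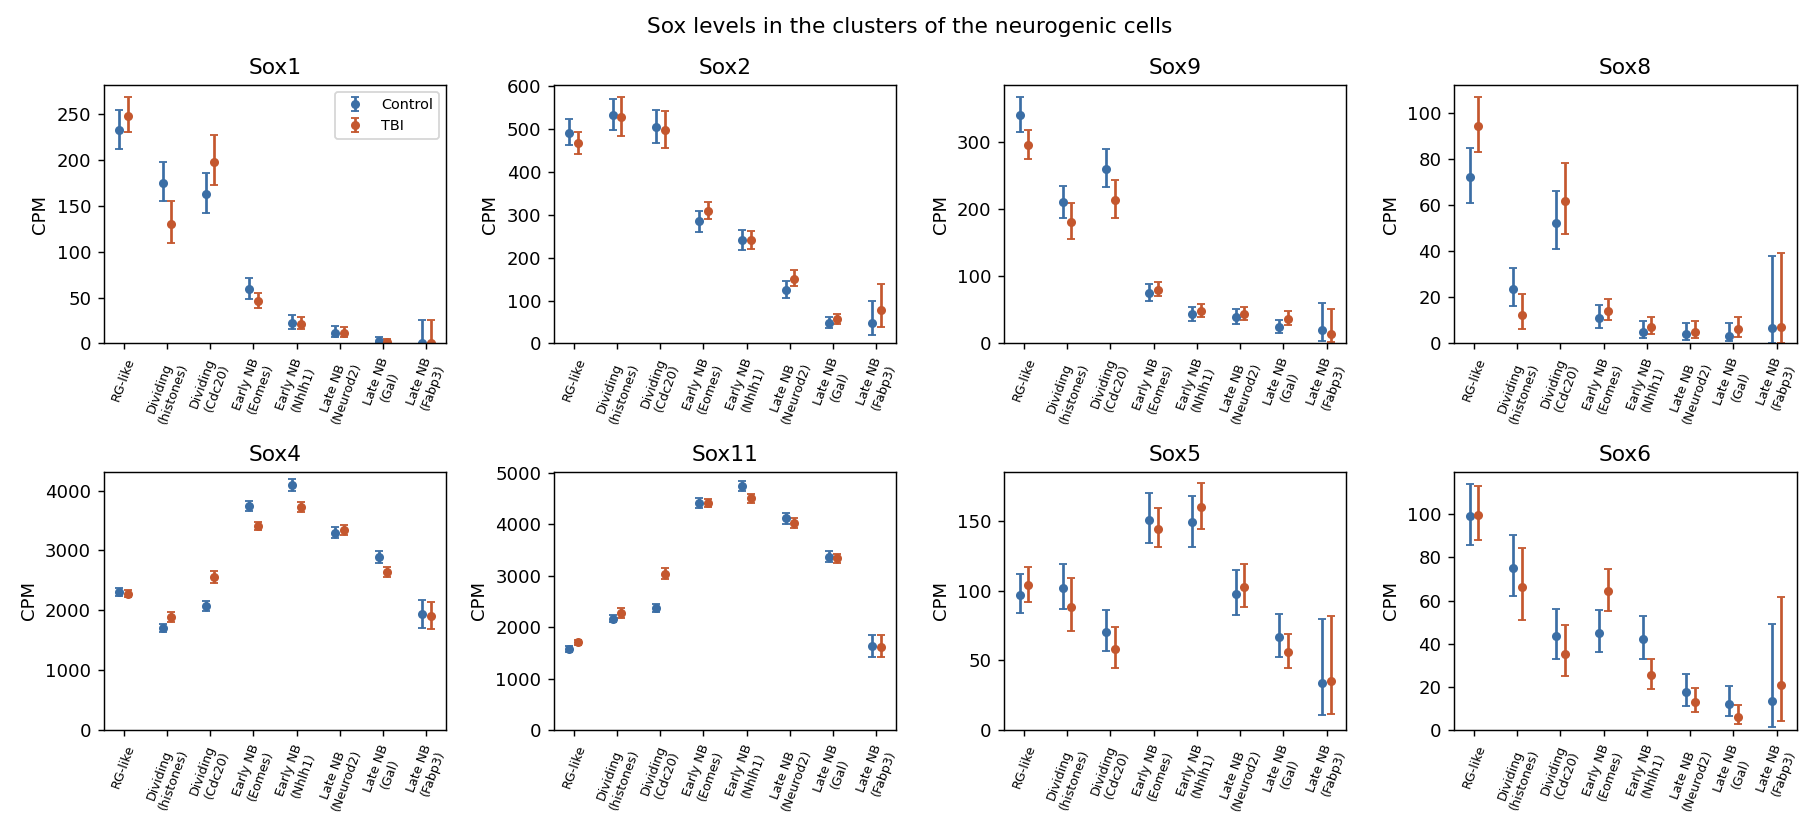
CPM of 8 Sox genes in the neurogenic clusters (x axis, named by cell type and a leading gene; NB, neuroblast), in the Control library (blue) and the TBI library (orange), with bars for 95% counting intervals. Sox1, Sox2, Sox8 and Sox9 are lower in the neuroblast clusters than in RG-like cells, with Sox2 still at 240 to 309 in early neuroblasts, while Sox4, Sox11 and Sox5 are highest in early neuroblasts in both libraries.

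Of the group D genes, Sox6, known for restraining differentiation of OPC, was highest in OPC at 586 (490 to 697) in Control and 475 (407 to 551) in TBI. Stem-like astroglia had 199 and 206 and astrocytes 149 and 161. Mature oligodendrocytes were at 1.58 and 2.72. Sox5 had no such peak, with 141 and 187 in OPC, 160 and 164 in stem-like astroglia, 150 and 151 in early neuroblasts and 123 and 115 in astrocytes, and 2.81 and 3.85 in oligodendrocytes. Mural cells also held Sox5, at 99.7 and 105, with a UMI in 16.4% of thinned cells against none of 794 endothelial cells, where a count of 0 allows 3 cells, or 0.378%, at that depth. Unthinned, the shares were 28.2% and 0.841%.

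The group E genes split the glia. Sox9 was at 715 (642 to 794) and 608 (502 to 729) in stem-like astroglia, 551 and 557 in astrocytes, 340 and 295 in RG-like cells and 233 and 197 in dividing progenitors. In OPC it was at 13.6 and 8.23 and in oligodendrocytes at 7.72 and 4.87, within the range of endothelial, mural and microglial cells (3.97 to 29.8). Sox10 was the mirror image, at 327 (256 to 412) and 302 (248 to 364) in OPC, 306 (292 to 321) and 270 (260 to 281) in oligodendrocytes, and at most 6.69 in every other named type.

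Few cells held both genes. At 2000 UMIs per cell, 57.2% of astrocytes had a Sox9 UMI and 40.7% of oligodendrocytes a Sox10 UMI, but only 10 of 6992 cells had both, 2 of them called doublets. All 10 were in the TBI library. In astrocytes the share with both was 0.431%, against a product of the shares of 0.432%, and in oligodendrocytes it was 0.253% against 0.387%. None of 75 OPC had a Sox9 UMI, which allows a share of up to 4.00% at this depth, and unthinned 6.02% of 83 OPC had one.

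Sox8 overlapped both patterns. It was at 232 (173 to 305) and 231 (184 to 285) in OPC and 142 and 150 in oligodendrocytes, but also at 72.2 and 94.7 in RG-like cells and 63.3 and 56.0 in astrocytes, where Sox10 was near 0. In early neuroblasts it was at 8.25 and 11.0. Sox8 and Sox10 were found together in 10.1% of oligodendrocytes, against a product of 9.76%.

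**Figure D3:**
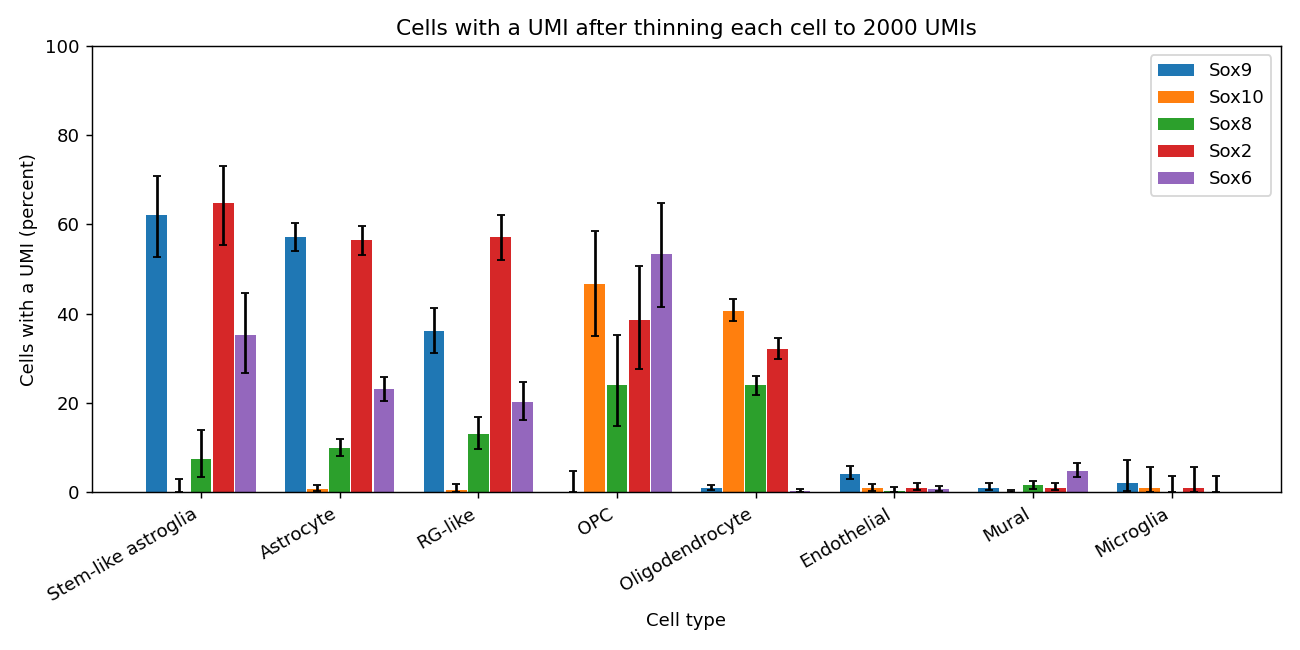
Percent of cells with at least 1 UMI of 5 Sox genes after each cell was thinned to 2000 UMIs, for both libraries together (bars: 95% Clopper-Pearson intervals). Sox9 is found in 57.2% of astrocytes and 0.951% of oligodendrocytes, and Sox10 in 0.754% and 40.7%.

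Within OPC, cells with more Gpr17 than Pdgfra UMIs (31 cells), Gpr17 being a receptor of committed precursors, were compared with cells with more Pdgfra (44 cells), a split chosen after the data were seen. Over both libraries, Sox8 was at 353 (286 to 431) in the former and 134 (94.6 to 185) in the latter. Sox5 was at 109 (73.7 to 156) and 247 (192 to 313). By library, the Sox8 intervals were apart in TBI (387 and 117) and overlapped in Control (309 and 185). Those of Sox5 were apart in Control (50.2 and 355) and overlapped in TBI (155 and 210). Sox11 was at 21.9 (8.02 to 47.6) in the Gpr17 cells and 577 (491 to 674) in the Pdgfra cells. Most of its UMIs in the Pdgfra cells came from TBI, where its level was 722, against 156 in Control. Sox10 (302 and 345), Sox2 (346 and 301) and Sox6 (484 and 559) had overlapping intervals. Those of Sox4 overlapped over both libraries (652 and 643) and in TBI (516 and 722), but were apart in Control (828 and 412). From Control to TBI, Sox4 was lower in the Gpr17 cells and higher in the Pdgfra cells, both by more than counting error. The sum over all OPC does not show these opposite differences.

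Of the other 10 names listed with the Sox genes, 9 were in the tables. Sox17 (398), Sox18 (207) and Sox7 (65.4), known in blood vessels, were highest in endothelial cells, as was Sox13 (63.4). Sox3, the third group B1 gene, was highest in OPC (34.2) and stem-like astroglia (19.2). Sox12, the third group C gene, was at 4.70 to 58.2 across the 12 types, without the neuroblast peak of Sox4 and Sox11. Sox14, Sox15 and Sox30 were at most 1.57 in any type.

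Partner factors and targets of the members are given for both libraries together. Olig2 and Nkx2-2, which act with Sox10 in the oligodendrocyte lineage, were at 683 and 139 in OPC and 224 and 35.7 in oligodendrocytes, and Myrf, a target of Sox10, at 135 and 290. Olig1 was at 1751 and 1159 there and 91.4 in astrocytes, and Tcf7l2 was at 286 in OPC but also 166 in astrocytes. The POU factors Pou3f2 and Pou3f3, partners of Sox2, were at 220 and 484 in astrocytes and 179 and 308 in dividing progenitors, and Pou3f1 was highest in OPC (168) and oligodendrocytes (153). Nfia and Nfib, glial and neuronal factors, were highest in late neuroblasts (1581 and 4899), Hes5 in RG-like cells (440) and Hes1 in endothelial cells (838). Neurog2 was highest in RG-like cells (367), Neurod1 in late neuroblasts (1124) and Prox1, a factor of granule neurons, in late neuroblasts (1011).

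The second question was whether the members differed between TBI and Control. Ratios were read only where a gene had at least 100 UMIs in a cell type over both libraries, which left 64 pairs of member and type, and 7 of these were past 1.5-fold. In the 4 neurogenic types, none of 30 pairs was past 1.5-fold. The share of all genes with enough UMIs that were past it was 3.00% in dividing progenitors, 2.64% in RG-like cells, 1.94% in early and 2.15% in late neuroblasts.

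Summed by cell type, the neurogenic differences were small. Finer clusters of early neuroblasts differed in opposite directions for Sox6, which the sum does not show. In the Nhlh1+ cluster it was at 42.2 (33.1 to 53.0) in Control and 25.4 (19.3 to 32.8) in TBI. In the Eomes+ cluster it was at 45.2 (36.1 to 55.8) and 64.3 (55.3 to 74.4), with overlapping intervals. In dividing progenitors, Sox4 was at 1878 in Control and 2237 in TBI (log2 ratio 0.25, interval 0.19 to 0.31) and Sox11 at 2261 and 2677 (0.24, 0.19 to 0.30). By cluster, Sox11 was at 2369 and 3042 in the cells led by Cdc20. In those led by histone genes it was at 2167 and 2280, with overlapping intervals. The Sox4 intervals were apart in both clusters, at 2072 and 2559 and at 1709 and 1886. In early neuroblasts the Sox4 ratio was -0.14 (-0.17 to -0.11). Sox9 was at 233 and 197 in dividing progenitors (-0.24, -0.42 to -0.06) and at 340 and 295 in RG-like cells (-0.20, -0.35 to -0.05). Sox8 was at 72.2 and 94.7 in RG-like cells (0.39, 0.09 to 0.70). In RG-like cells the ratio of Sox2 was -0.07 and that of Sox1 0.10, with both intervals holding 0. Differences of this size between 2 single libraries cannot be told apart from differences between any 2 pools of animals.

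Among the listed partners, Hes5, a Notch target of stem cells, was past 1.5-fold lower in TBI in 4 types. It was at 611 and 305 in RG-like cells (interval of the log2 ratio -1.13 to -0.87), 471 and 259 in dividing progenitors (-0.86), 68.5 and 39.6 in early neuroblasts (-0.79) and 405 and 243 in stem-like astroglia (-0.74). No member had a ratio of that size in these types. In astrocytes Hes5 was higher in TBI, at 303 and 381 (0.33, 0.17 to 0.48). The other listed partners past 1.5-fold in the neurogenic types were Olig1 (29.8 and 15.4, -0.95) and Tcf7l2 (33.7 and 51.2, 0.61) in RG-like cells and Tubb3 (111 and 185, 0.73) in dividing progenitors.

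In glia, the Sox9 ratio in astrocytes was 0.02 and that of Sox2 0.00, Sox1 was at 72.4 and 95.3 (0.40, 0.07 to 0.72), and Sox10 in oligodendrocytes was at 306 and 270 (-0.18, -0.27 to -0.09). In stem-like astroglia none of 6 members was past 1.5-fold, against 6.89% of all genes. In astrocytes 1 of 9 was, against 3.04%, in oligodendrocytes 1 of 5, against 2.08%, and in OPC 1 of 6, against 30.2%. All 3 of these were Sox11.

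Sox11 in astrocytes was at 28.7 (22.4 to 36.4) in Control and 50.4 (40.1 to 62.6) in TBI, a log2 ratio of 0.81 (0.33 to 1.30) from 151 UMIs. In TBI, 43 of 699 astrocytes had a UMI and 5 of them held 48.8% of the UMIs, while in Control 51 of 720 had one. Without cells called doublets, 2 in TBI, the ratio was 0.06. A list of 10 neuronal genes, all with UMIs in astrocytes of both libraries, had a summed level of 1309 in Control and 1588 in TBI. Most of that sum was Tubb2b, at 1091 and 1212, while Tubb3 was at 3.75 and 20.3 and Dcx at 2.50 and 8.00. Every list gene was higher in TBI, with the intervals of the Neurod2 and Cd24a ratios holding 0. Of the 4 list genes with at least 100 UMIs there, 2 (Stmn1 and Igfbpl1) were past 1.5-fold higher, against 1.11% of all genes. The part of this RNA in the Sox11 ratio was not tested.

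In OPC, Sox11 was at 90.9 (55.5 to 140) in 28 Control cells and 414 (351 to 486) in 55 TBI cells (2.19, 1.51 to 2.94). The difference lay in the cells with more Pdgfra, at 156 (78.0 to 280) and 722 (610 to 848), and not in those with more Gpr17, at 25.1 and 19.3. A Sox11 UMI was found in 11 of 28 Control and 25 of 55 TBI cells, and in TBI 5 cells held 76.2% of the Sox11 UMIs. The summed neuronal list was at 1232 in Control, with 2 of its 10 genes at 0, and at 2412 in TBI. The highest list gene alone was at 959 in Control and 1562 in TBI. Only 2 list genes (Stmn1 and Tubb2b) had at least 100 UMIs, and both were past 1.5-fold higher, against 19.4% of all genes. Olig2 (505 and 790) and Tcf7l2 (500 and 156) also differed. So did the summed level of 5 oligodendrocyte genes, at 22037 in Control and 5445 in TBI, and the median mitochondrial share of UMIs, at 9.83% and 4.57%. The part of cell makeup and of the neuronal RNA in the ratio was not tested.

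In oligodendrocytes, Sox11 was at 40.9 and 70.3 (0.78, 0.56 to 1.01), and 5 cells held 86.7% of the Control and 51.7% of the TBI UMIs. A single cluster of 38 Control and 228 TBI cells, with 50 of the 61 doublets called among oligodendrocytes, had Sox11 at 564 and 314. The other clusters were at 6.17 and 10.8 (0.81, 0.21 to 1.45), so most Sox11 UMIs of oligodendrocytes came from that cluster. Without all doublets the ratio was 0.29.

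In Reln+ neurons, both group C genes were lower in TBI, against 4.50% of all genes past 1.5-fold. Sox4 was at 840 and 295 (-1.51, -1.85 to -1.17) and Sox11 at 734 and 168 (-2.13, -2.55 to -1.71). The Control cells numbered 28. With cells ranked for each gene separately, the top 5 held 98.2% of the Sox11 and 89.5% of the Sox4 UMIs. As a mean over cells the Sox4 ratio was -0.57 and that of Sox11 -1.66. Without cells called doublets, all 5 of them in TBI, the ratios were -1.91 and -3.95, and with each cell typed by its own marker levels they were -1.16 and -0.80.

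In mural cells, 2 of 3 members were past 1.5-fold, against 11.6% of all genes. Sox4 was at 92.2 and 158 (0.78, 0.46 to 1.11) and Sox6 at 59.8 and 25.3 (-1.24, -1.79 to -0.70). The mural clusters were not shared evenly, since 1 cluster held 41.8% of TBI and 16.7% of Control mural cells, with Sox4 at 196 and Sox6 at 16.5, and another held 6.41% and 19.4%, with 56.0 and 102. As a mean over cells the Sox4 ratio was 0.41, under 1.5-fold. The part of this makeup in the ratios was not tested. In endothelial cells neither of 2 members was past 1.5-fold, against 2.64% of all genes, and in microglia Sox4 was not, against 9.69%.

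**Figure D4:**
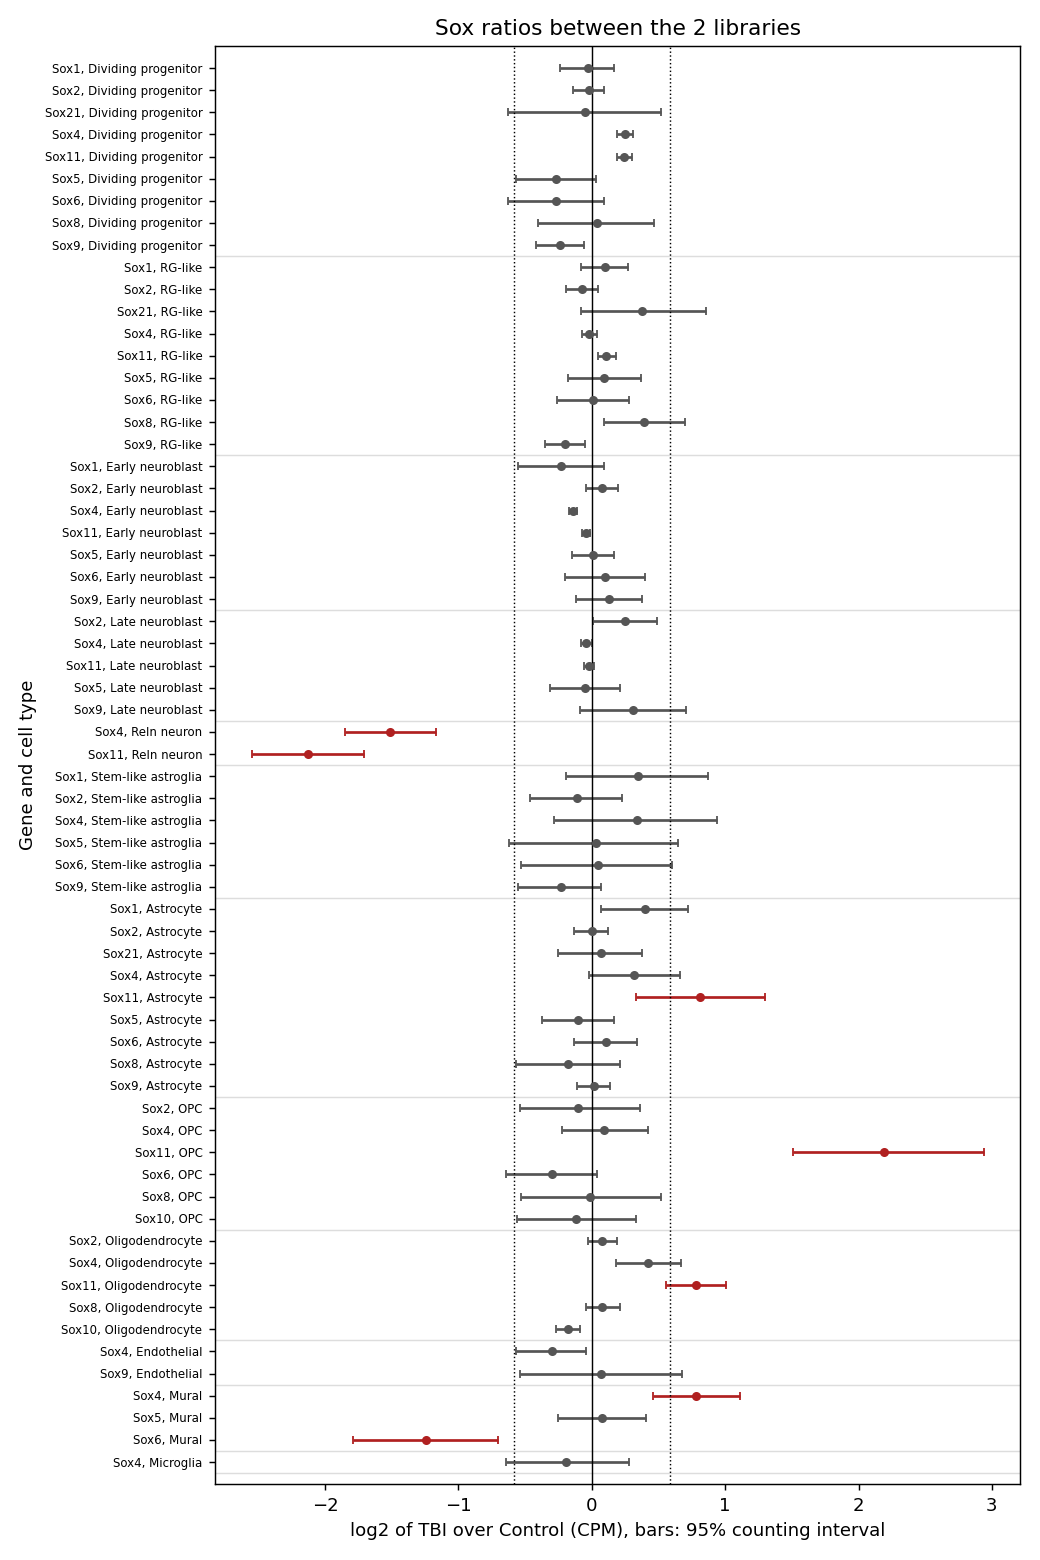
Log2 ratio of TBI to Control for each of the 64 pairs of Sox gene and cell type with at least 100 UMIs, with bars for 95% counting intervals, dotted lines at 1.5-fold and the 7 pairs past it in red. Of the red pairs, 4 are Sox11 (Reln+ neurons, astrocytes, OPC and oligodendrocytes), 2 are Sox4 and 1 is Sox6, and none is in a neurogenic type.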

How the data were processed

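Single cells were sequenced from 1 pooled library per condition. The authors deposited UMI counts per gene and cell from Cell Ranger 3.0.2 (GRCm38, mm10), per the submitters' processing notes. The condition of each table was set by barcodes that the study lists for each condition: 84 of 84 Control and 87 of 87 TBI barcodes were in 1 table and none in the other. Cells with under 200 genes, or with log UMIs over 3 median absolute deviations from their library's median, were left out. Clusters were rebuilt with the study's settings in Seurat 5.3.0 (R 4.3.3; 20 dimensions and resolution 3, then 30 dimensions, 16 components and resolution 0.8 for lineage cells). They were named where at least 3 fixed markers were detected, so they may differ from the study's. A cluster stayed unnamed if it was low in UMIs and had none of its type's markers among its 10 leading genes. The same held if markers of another type led there. Scrublet (scanpy 1.11.5) marked likely doublets, which stayed in except in an alternative. UMI counts were summed per type and library. Intervals were exact Poisson for levels, exact conditional binomial for ratios and Clopper-Pearson for shares. The summing and interval code was tested on simulated data. Members and lists were chosen with earlier results of these data known, and named genes were the members, these lists and the 3 genes most like each member (those for Sox1 are not reported here). Single cells are not replicates, and no p-value was computed.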

Additional observations from a re-analysis of the deposited data

How the results depend on the processing

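The number of members with the same leading cell type in both libraries was 6 to 8 of 10 under the alternatives tried, and the number of pairs past 1.5-fold was 5 to 10. With a limit of 2-fold it was 4, and with a minimum of 300 UMIs it was 3 of 44 pairs, because fewer pairs qualify. None of these counts was set beside the share of all genes at the same setting, so they cannot be read as high or low for the members. Alternatives that left out an oligodendrocyte or a mural cluster could change values of that cell type only, so most of their ratios could not move. With these included, 620 of 640 recomputed ratios stayed within their counting interval and 18 moved out of it. Of the 18, 6 came from typing each cell by its own marker levels, 6 from means over cells and 5 from leaving out doublets. The remaining 2 of the 640 changed sign, both when each cell was typed by its own marker levels: Sox4 in endothelial cells to 0.33 and Sox11 in astrocytes to -0.01, and the cause was not tested. Without doublets, Sox11 in Reln+ neurons was -3.95. Of 200 recomputed levels, 18 moved, 10 of them when mitochondrial and ribosomal genes left the total. Thinning sets the shares: early neuroblasts with a Sox11 UMI were 98.2% at 1000 UMIs, oligodendrocytes with a Sox10 UMI were 21.4% at 1000 UMIs and 79.1% unthinned, and astrocytes with a Sox9 UMI were 34.8% and 62.9%. The oligodendrocyte and mural clusters left out and the OPC split were chosen after seeing the data. No paired analysis was possible because each condition is 1 pooled library.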

Other observations

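Low-RNA cells that stayed unnamed carried group C RNA. Those nearest to late neuroblasts held it in both libraries, with Sox11 at 1112 CPM in 53 Control and 1834 in 113 TBI cells and Sox4 at 732 and 1307. These levels are not like for like between the libraries. The summed level of 4 haemoglobin genes was 179459 CPM in these Control cells and 0 in these TBI cells, and its part in the levels was not tested. The unnamed cells nearest to mural cells had Sox11 at 1393 CPM in 82 TBI cells and at 0 in 18 Control cells, which allows up to 192, against 37.2 and 3.32 in named mural cells. The unnamed cells nearest to endothelial cells had Sox11 at 513 in 85 TBI cells and at 0 in 29 Control cells, which allows up to 111. The summed neuronal list was 5468 in TBI and 385 in Control in the unnamed cells nearest to mural cells, and 2443 and 594 in those nearest to endothelial cells. A small cluster named mural (12 Control and 19 TBI cells) had Sox11 at 714 in TBI and 0 in Control, and without it the mural Sox11 levels were 10.3 and 3.44. Its name is weak: 3 mural markers were detected, the minimum, and none was among its 10 leading genes, which included Spp1, Dcn, Lum and Col1a1.

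An oligodendrocyte cluster with a median of 2079 UMIs per cell (249 cells) had Sox2 at 401 and Sox10 at 161, where the other 5 oligodendrocyte clusters had Sox2 at 182 to 200 and Sox10 at 234 to 308. Its median mitochondrial share of UMIs was 37.1%, against 6.7% to 8.25% in those 5, and the part of this share in the levels was not tested. Among astrocytes, a cluster of 556 cells with a median of 1691.5 UMIs had Sox6 at 43.6 and Sox9 at 597, and a cluster of 367 cells with a median of 2366 UMIs had Sox6 at 233 and Sox9 at 354.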
